A study of Rattus norvegicus with 44 samples.

Results

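Neuronal immediate early genes are transcribed within minutes of synaptic activity and calcium entry, without new protein synthesis, and their transcripts decay quickly. Most encode transcription factors that pass a short burst of activity on to slower target genes, and some, such as Arc, act directly at synapses. In the hippocampus they are widely used to mark neurons that took part in a recent experience and are needed for lasting memory.

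The 10 genes described here were chosen by symbol: Fos, Fosb, Junb, Egr1, Egr3, Egr4, Npas4, Nr4a1, Nr4a3 and Arc. All 10 had a row in the table of each region, among 20003 rows for CA1 and 20050 for the dentate gyrus (DG). All 10 passed the filter on low values, which kept the 14915 CA1 genes and 14904 DG genes that reached 10 normalized reads in 6 or more libraries.

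Polyadenylated RNA was sequenced from CA1 and DG, cut from 1 hippocampus of each of 22 male rats, giving 44 libraries. The groups were young rats of 5 to 7 months given lipopolysaccharide (LPS), a bacterial endotoxin, at 1 mg per kg (young LPS, n = 8 rats), aged rats of 14 to 16 months given saline (aged vehicle, n = 6) and young rats of 5 to 7 months given saline (young vehicle, n = 8). Every rat received 7 weekly injections into the abdomen and was decapitated under isoflurane 48 hours after the last one. The series asks how repeated peripheral inflammation and age compare in their effects on the hippocampus. The labels name no strain.

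Values are the authors' normalized read counts, called normalized reads below, each a read count divided by a factor for its library. They were normalized separately in each region. Libraries held 12292346 to 18749666 recovered reads in CA1 and 12130182 to 23519791 in DG. The thinnest of the 10 genes was Npas4, with as few as 13 reads in a DG library, then Fos with as few as 23. Levels of different genes are not compared, because transcript lengths were not used here. In bulk tissue, fewer cells of a type and less RNA per cell cannot be told apart.

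Promoter sequence was found for 6 of the 10 genes, Fosb, Junb, Egr1, Egr4, Npas4 and Nr4a1, in the RefSeq table of build GRCr8. The 250 bases before the start of each were searched on both strands. The core of the cyclic AMP response element (CRE), TGACG, which binds the activity-regulated factor CREB, was present in 4 of the 6 and in 18.2% of 33469 rat promoters. Nr4a1 held 4 copies, Egr1 and Egr4 held 2 each and Junb held 1. The CArG box, the binding site of serum response factor, was present in Egr1 alone of the 6, with 2 copies, and in 1.5% of all promoters. An EGR site, GCGNGGGCG, was present in Nr4a1 alone of the 6 and in 4.29% of all promoters. TATAAA was present in Fosb and Junb and in 12.9% of all promoters. Neither the full CRE, TGACGTCA, which contains the core, nor the AP-1 site, TGACTCA or TGAGTCA, was found in the 6 windows; they were in 1.59% and 4.05% of all promoters. A match describes letters only.

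The 4 windows with a CRE core are shown, because they carry the motif in different numbers and places. Letters run 5′ to 3′, with every match to one of these motifs in capitals.
Nr4a1, chr7:134259888-134260137, plus strand: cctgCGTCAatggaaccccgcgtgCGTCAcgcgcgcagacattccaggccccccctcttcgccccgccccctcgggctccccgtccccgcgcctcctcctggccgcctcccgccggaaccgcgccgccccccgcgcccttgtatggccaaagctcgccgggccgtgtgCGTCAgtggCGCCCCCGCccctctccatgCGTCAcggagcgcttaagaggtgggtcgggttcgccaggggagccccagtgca
Egr1, chr18:26736828-26737077, plus strand: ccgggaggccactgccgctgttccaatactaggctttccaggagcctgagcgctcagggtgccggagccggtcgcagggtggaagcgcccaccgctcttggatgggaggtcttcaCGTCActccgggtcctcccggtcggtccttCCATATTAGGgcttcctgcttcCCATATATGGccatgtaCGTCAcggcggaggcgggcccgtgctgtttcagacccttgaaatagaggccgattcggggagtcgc
Egr4, chr4:119607818-119608067, minus strand: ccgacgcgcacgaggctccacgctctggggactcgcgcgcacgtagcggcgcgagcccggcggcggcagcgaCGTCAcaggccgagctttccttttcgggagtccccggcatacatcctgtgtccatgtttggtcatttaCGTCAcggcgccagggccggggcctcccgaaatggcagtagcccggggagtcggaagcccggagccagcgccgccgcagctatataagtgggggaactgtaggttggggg
Junb, chr19:40080876-40081125, plus strand: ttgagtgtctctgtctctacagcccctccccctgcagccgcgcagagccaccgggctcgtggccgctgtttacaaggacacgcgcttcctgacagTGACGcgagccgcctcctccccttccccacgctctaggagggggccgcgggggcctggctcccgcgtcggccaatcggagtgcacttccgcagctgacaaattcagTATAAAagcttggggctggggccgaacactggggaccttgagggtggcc

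In the Nr4a1 window the cores lie in 2 pairs, starting 246 and 226 bases and 82 and 53 bases before the start of transcription, with the EGR site between the members of the nearer pair. In the Egr1 window the 2 CArG boxes, starting 105 and 83 bases before the start, lie between the 2 CRE cores.

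Scaled to the recovered reads of each library, most of these genes were more abundant in CA1 than in DG of the same rat. This is a description, since the regions' tables were normalized separately. Nr4a1, an orphan nuclear receptor, was higher in CA1 in 22 of 22 rats, with a median ratio of 3.24. Arc, whose protein promotes removal of AMPA receptors from synapses, was higher in 21 of 22 rats, with a median ratio of 2.28. Egr1, a zinc-finger factor, was higher in 22 of 22 rats, with a median ratio of 1.88. The calcium-dependent factor Npas4 was higher in CA1 in 18 rats, Egr4 in 20, Junb in 18, Fos in 15 and Fosb in 10. The opposite order held for the zinc-finger factor Egr3, higher in CA1 in only 3 rats (median ratio 0.701), and for the nuclear receptor Nr4a3, higher in CA1 in 5 rats (median ratio 0.809).

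In CA1 of rats given LPS, none of the 10 genes passed the threshold against young vehicle. The threshold throughout was a limma p below 0.05 after Benjamini-Hochberg adjustment over all genes tested. The log2 change was positive for 10 of 10, from 0.08 for Nr4a3 to 0.40 for Nr4a1, with a median of 0.22, beside a median of 0.01 and 52.2% positive over all genes tested. No gene of the 14915 was called (0%), and 1 of the 10 had an unadjusted p below 0.05, beside 6.87% of all genes. The 10 genes vary together across rats, so a shared sign, here and in the comparisons below, is not 10 separate observations.

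The direction was not stable for 6 of the 10. Among rats whose numbers begin with 25 (4 in each group), the log2 change was -0.41 for Fos, -0.11 for Arc, -0.10 for Junb, -0.08 for Nr4a3 and -0.02 for Egr4, and with the leading digits of the number (24, 25 or 27) as a term it was -0.01 for Npas4. Fos in these rats had a median of 88.5 normalized reads in young LPS against 147.3 in young vehicle, and Arc of 2359 in young LPS against 2772 in young vehicle. Those beginning with 24 (3 young LPS rats, 1 young vehicle rat) and with 27 (1 young LPS rat, 3 young vehicle rats) were not fitted alone. Some marker lists of cell types moved by as much over all rats. CA1 pyramidal markers had a median log2 change of 0.21 (9 of 10 positive) and oligodendrocyte markers of 0.23 (8 of 10 positive). Astrocyte markers had a median of 0.20 (9 of 10 positive, 4 with an unadjusted p below 0.05). The 7 dentate granule markers tested had a median of -0.42, the 6 choroid plexus markers of -0.61 and the 3 blood markers of 0.76. Other lists moved less. General neuron markers had a median of -0.04 (4 of 10 positive), interneuron markers of 0.005 (5 of 10 positive) and endothelial markers of 0.05. Meningeal markers had a median of -0.008, and microglia and mural markers of 0.11 each. None of these markers was called. The summed level of the astrocyte list ran from 81550 to 103900 in young LPS against 68660 to 91070 in young vehicle. The part of these markers in the changes of the 10 genes was not tested.

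Nr4a1 in CA1 ran from 830 to 2359 normalized reads in young LPS, with a median of 1425, against 701 to 1326 in young vehicle, with a median of 1097. The 5 highest LPS libraries lay above every vehicle library and the other 3 lay within the vehicle range. The log2 change was 0.40 (SE 0.18, limma unadjusted p = 0.0368, adjusted p = 0.654). Fos, a subunit of the AP-1 factor, ran from 65.2 to 356 in young LPS (median 134) against 48.8 to 152 in young vehicle (median 115). In all, 4 LPS libraries exceeded every vehicle library, and the lowest LPS value came from rat 2547. Its log2 change was 0.34, with an SE of 0.32 and a limma adjusted p of 0.704.

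Among the AP-1 partners, Fosb had a log2 change of 0.20 and Junb of 0.09. Among the Egr genes the changes were 0.29 for Egr1, 0.17 for Egr3 and 0.22 for Egr4. Arc changed by 0.30, Npas4 by 0.21 and Nr4a3 by 0.08. The lowest limma adjusted p of the 10 was 0.654.

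In CA1 of aged rats, again none of the 10 passed the threshold against young vehicle, and 8 of 10 log2 changes were negative. The median was -0.29, beside 0.00 over all genes tested, of which 50.4% were positive. Of all genes 0.0134% were called. Arc, Nr4a1 and Junb had an unadjusted p below 0.05, 3 of 10 beside 12.6% of all genes. The comparison shares its young vehicle libraries with the LPS comparison.

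Arc ran from 947 to 1742 in aged vehicle CA1, with a median of 1526, against 1600 to 3224 in young vehicle, with a median of 2426. All 6 aged libraries lay below the young median and 4 lay below every young library. The log2 change was -0.71 (SE 0.23, limma unadjusted p = 0.00465, adjusted p = 0.393). Nr4a1 ran from 525 to 852 in aged vehicle (median 700) against 701 to 1326 in young vehicle (median 1097). Again 6 of 6 aged libraries were below the young median, 4 of them below every young library. Its log2 change was -0.64 (SE 0.20, limma unadjusted p = 0.00309, adjusted p = 0.393). Age was unevenly spread over the rats' numbers. Those beginning with 24 were 4 aged rats and 1 young vehicle rat. That young rat lay within the aged range for Arc (1600 against 1283 to 1742) and Nr4a1 (700.9 against 699.6 to 852). Among numbers beginning with 25, 2 aged rats lay below 4 young vehicle rats for Arc (947 to 1582 against 2394 to 3224). So they did for Nr4a1 (525 to 615 against 1126 to 1326). No aged rat's number began with 27.

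Junb ran from 366 to 634 in aged vehicle against 470 to 1001 in young vehicle, and its log2 change was -0.36 (SE 0.15, limma unadjusted p = 0.0257, adjusted p = 0.393). Its 6 aged libraries were all below the young median. Egr1 changed by -0.30, Egr3 by -0.28, Fos by -0.34, Egr4 by -0.15 and Npas4 by -0.07. Fosb and Nr4a3 had positive changes of 0.13 and 0.01. With library weights Nr4a1 alone of the 10 passed the threshold, with a log2 change of -0.55 and a limma adjusted p of 0.0271, where the alternatives together gave adjusted p from 0.0271 to 0.583.

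The remaining members overlapped broadly between all groups in CA1. Npas4 ran from 20.3 to 205.7 in young LPS (median 101.5), from 21.1 to 185.8 in aged vehicle (median 81.0) and from 42.0 to 125.3 in young vehicle (median 78.0). Its spread within a group was the widest of the 10 relative to the mean in the aged rats, with a coefficient of variation of 72.2%. Egr4 ran from 191 to 410 in young LPS (median 236), from 86.1 to 311 in aged vehicle (median 224) and from 166.5 to 285 in young vehicle (median 214). Fosb ran from 121 to 249 in young LPS (median 171), from 128 to 252.5 in aged vehicle (median 159) and from 134 to 174.6 in young vehicle (median 145). The LPS and aged rats were thus more spread than the young vehicle rats for Fosb, with 4 LPS libraries above and 2 below every vehicle library. Nr4a3 had log2 changes no larger than 0.08 in size in the 3 comparisons, with medians of 714 in young LPS, 652.5 in aged vehicle and 646 in young vehicle.

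**Figure D1:**
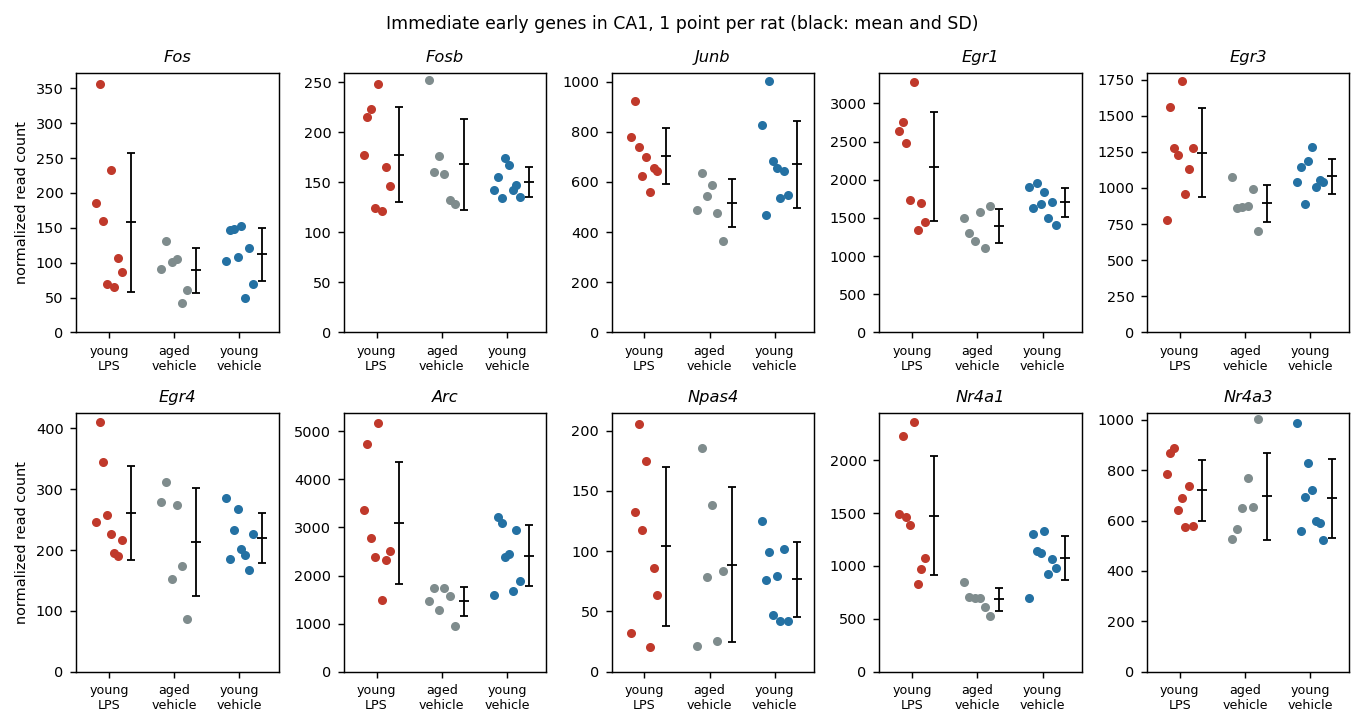
Normalized reads (y axis, from 0) of the 10 genes in CA1 of each rat in young LPS (n = 8), aged vehicle (n = 6) and young vehicle (n = 8); points are rats, black bars mean and SD. For Arc and Nr4a1, 4 of 6 aged libraries lie below every young vehicle library, and LPS values spread widely, with rats 2404 and 2543 high.

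Set directly against aged vehicle, CA1 of young LPS rats had more Nr4a1, Arc, Egr1 and Egr3, which rose past the threshold. The log2 change was positive for 10 of 10, with a median of 0.45, beside 0.02 over all genes tested. Of all genes 8.73% were called, 3.49% being higher in young LPS, and 5 of the 10 had an unadjusted p below 0.05, beside 35.8% of all genes. These groups differ in both agent and age. Against young vehicle, in the same fit, the log2 change of Nr4a1 was 0.40 in young LPS and -0.64 in aged vehicle, and that of Arc 0.30 in young LPS and -0.71 in aged vehicle. None of the 10 was free of overlap between the groups, as 0.838% of all genes were.

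Nr4a1 in CA1 was 1477 ± 560 normalized reads in young LPS (SD, n = 8), against 683 ± 109 in aged vehicle (SD, n = 6). The lowest LPS value, 830, fell below the highest aged value, 852, and the other 7 LPS libraries lay above every aged library. It was 2.05-fold higher, a log2 change of 1.04 with an SE of 0.20 and a limma adjusted p of 0.049.

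Arc ran from 1482 to 5180 in young LPS (median 2654) against 947 to 1742 in aged vehicle (median 1526), a 2.01-fold difference in which the log2 change was 1.01 with an SE of 0.23 and a limma adjusted p of 0.049. Only rat 2547 among the 8 LPS rats lay within the aged range.

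Egr1 ran from 1336 to 3286 in young LPS (median 2109) against 1104 to 1657 in aged vehicle (median 1404). Egr3, a paralog of Egr1 also induced by synaptic activity, ran from 780.5 to 1741 in young LPS (median 1251) against 699 to 1074 in aged vehicle (median 871). In each case 6 of 8 LPS libraries lay above every aged library. Their log2 changes were 0.59 (SE 0.17, limma adjusted p = 0.049) and 0.45 (SE 0.14, limma adjusted p = 0.0492). Junb had a change of the same size, 0.45, with a limma adjusted p of 0.0551, and 6 of its 8 LPS libraries lay above every aged library. The other changes were 0.68 for Fos (adjusted p = 0.154), 0.37 for Egr4, 0.28 for Npas4, 0.07 for Fosb and 0.06 for Nr4a3.

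These 4 calls sit close to the threshold. Of the 1302 genes called in all, 1300 had an adjusted p between 0.045 and 0.05. No member was called when any 1 of these rats was left out: rat 2404, 2408, 2527, 2543 or 2717 of young LPS, 2415, 2420, 2531 or 2532 of aged vehicle, or 2410, 2526, 2571, 2722, 2728 or 2731 of young vehicle. The count was also 0 with no filter, with only the groups compared, without rats 2526, 2572 and 2532, and within number series 25. Those 3 rats had the highest meningeal fibroblast markers in DG; in CA1, rat 2526 had choroid plexus markers 4.25 and meningeal markers 1.43 above the mean on the log2 scale, and the general neuron markers of rat 2532 summed to 196700, where the next highest CA1 library had 111700. Over single rats left out, the log2 change of Nr4a1 ran from 0.93 to 1.14 and that of Arc from 0.89 to 1.15, with limma unadjusted p no higher than 6.87e-05 and 0.000635.

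The rats' numbers begin with 24, 25 or 27. Within series 24, Arc ran from 2792 to 4741 in young LPS (n = 3) and from 1283 to 1742 in aged vehicle (n = 4). Within series 25 it ran from 1482 to 5180 in young LPS (n = 4) and from 947 to 1582 in aged vehicle (n = 2). Nr4a1 ran from 1463 to 2233 in young LPS and from 700 to 852 in aged vehicle in series 24, and in series 25 from 830 to 2359 in young LPS and from 525 to 615 in aged vehicle. Egr1 ran from 2484 to 2758 in young LPS and from 1191 to 1581 in aged vehicle in series 24, and from 1336 to 3286 in young LPS and from 1104 to 1657 in aged vehicle in series 25. Egr3 ran from 780.5 to 1560 in young LPS and from 863 to 1074 in aged vehicle in series 24, and from 958 to 1741 in young LPS and from 699 to 993 in aged vehicle in series 25. Series 27 held no aged rat.

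Rats of the LPS group differed widely. Rats 2404 and 2543 each held 7 of the 10 genes among the 3 highest CA1 libraries of all 22. Rat 2547 was the lowest of its group for 8 of 10. In aged vehicle, rat 2532 was the lowest for 6 of 10, and its library had the fewest reads of the CA1 libraries, 12292346.

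Marker levels of other cells in CA1 differed between these rats. The blood markers of rat 2404 lay 1.52 above the CA1 mean on the log2 scale, its oligodendrocyte markers 0.59 above and its astrocyte markers 0.39 above. In rat 2543 these were -0.44, -0.30 and 0.10. Over the groups, the summed level of the 10 CA1 pyramidal markers ran from 37940 to 64340 in young LPS, from 31030 to 69760 in aged vehicle and from 31290 to 50150 in young vehicle. None of these 10 markers was at 0 in all libraries. For young LPS minus aged vehicle, their median log2 change was -0.02 (5 of 10 positive). It was 0.29 for oligodendrocyte markers, 0.11 for astrocyte markers and 0.17 for meningeal markers (6 of 10 positive in each). The 6 choroid plexus markers tested had a median of -0.54 and the 3 blood markers of 0.32. A limma unadjusted p below 0.05 was seen for 7 of 10 general neuron, 7 of 10 interneuron and 6 of 10 CA1 pyramidal markers. It was seen for 1 of 10 meningeal markers and 35.8% of all genes. The cell type markers called were Rbfox3, Egfl7, Tie1 and Notch3, higher in young LPS than in aged vehicle, and Calb1, Gad2 and 1 of 9 microglia markers, lower. They stand beside 8.73% of all genes called. Not all of their lists moved the same way. General neuron markers, with Rbfox3, had a median of -0.04 (5 of 10 positive), and interneuron markers, with Gad2, of 0.03 (6 of 10 positive). The median was 0.16 for endothelial markers (6 of 9 positive) and 0.31 for mural markers (8 of 9 positive). Dentate granule markers had a median of -0.22 (2 of 7 positive) and microglia markers of -0.06 (3 of 9 positive). The part of these markers in the result was not tested.

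In DG none of the 10 genes passed the threshold in any comparison. Of all genes 0.0134% were called in each of the LPS, age and LPS against aged comparisons. Medians of the 10 log2 changes were 0.04 for young LPS minus young vehicle, 0.03 for aged vehicle minus young vehicle and 0.09 for young LPS minus aged vehicle, with 6 of 10 positive in each. An unadjusted p below 0.05 was seen for 1, 0 and 0 of the 10, beside 7.53%, 2.99% and 9.1% of all genes.

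Nr4a3 was the 1 gene with an unadjusted p below 0.05 in DG. It ran from 714 to 1253 in young LPS (median 976) against 542 to 973 in young vehicle (median 812), and 4 LPS libraries lay above every vehicle library. Its log2 change was 0.28 (SE 0.12, limma unadjusted p = 0.033, adjusted p = 0.631). Fosb ran from 131 to 245 in young LPS DG (median 156) against 140 to 263 in aged vehicle (median 215). That log2 change was -0.30 (SE 0.15, limma unadjusted p = 0.0501, adjusted p = 0.55), and 7 of 8 LPS libraries lay below the aged median.

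Arc in DG ran from 720 to 1684 in young LPS, from 711 to 1283 in aged vehicle and from 755 to 2095 in young vehicle. Nr4a1 ran from 261 to 625.1 in young LPS, from 197 to 484 in aged vehicle and from 204 to 615 in young vehicle. In DG 4 of 8 LPS libraries for Arc and 3 of 8 for Nr4a1 lay above every aged library, and the lower LPS libraries overlapped with the aged ones. Their log2 changes of young LPS minus aged vehicle in DG were 0.24 (95% interval -0.24 to 0.73) for Arc and 0.29 (95% interval -0.28 to 0.86) for Nr4a1.

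The other members in DG also overlapped between the 3 groups. Egr1 ran from 724 to 1558 in young LPS (median 938.5), from 702 to 1368 in aged vehicle (median 957.5) and from 746.5 to 1199 in young vehicle (median 935). Egr3 ran from 942 to 1992 in young LPS, from 1161 to 1644 in aged vehicle and from 1182 to 1722 in young vehicle. The LPS rats held both the highest and the lowest Egr3 value of all 22 libraries. Fos ran from 27.9 to 182.5 in young LPS (median 70.6), from 67.1 to 130.5 in aged vehicle (median 83.7) and from 60.9 to 180.4 in young vehicle (median 73.0). Here 4 LPS libraries lay below and 3 above every aged library, so that the group most spread was again young LPS. Junb had medians of 473 in young LPS, 449 in aged vehicle and 507 in young vehicle, Egr4 of 128 in young LPS, 155 in aged vehicle and 134 in young vehicle, and Npas4 of 44.6 in young LPS, 54.5 in aged vehicle and 44.9 in young vehicle.

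No member was free of overlap between the groups in any comparison. Of all genes 0.0134%, 0.235% and 0.838% were free of overlap in the LPS, age and LPS against aged comparisons in CA1, and 0.0403%, 0.0738% and 0.443% in DG.

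**Figure D2:**
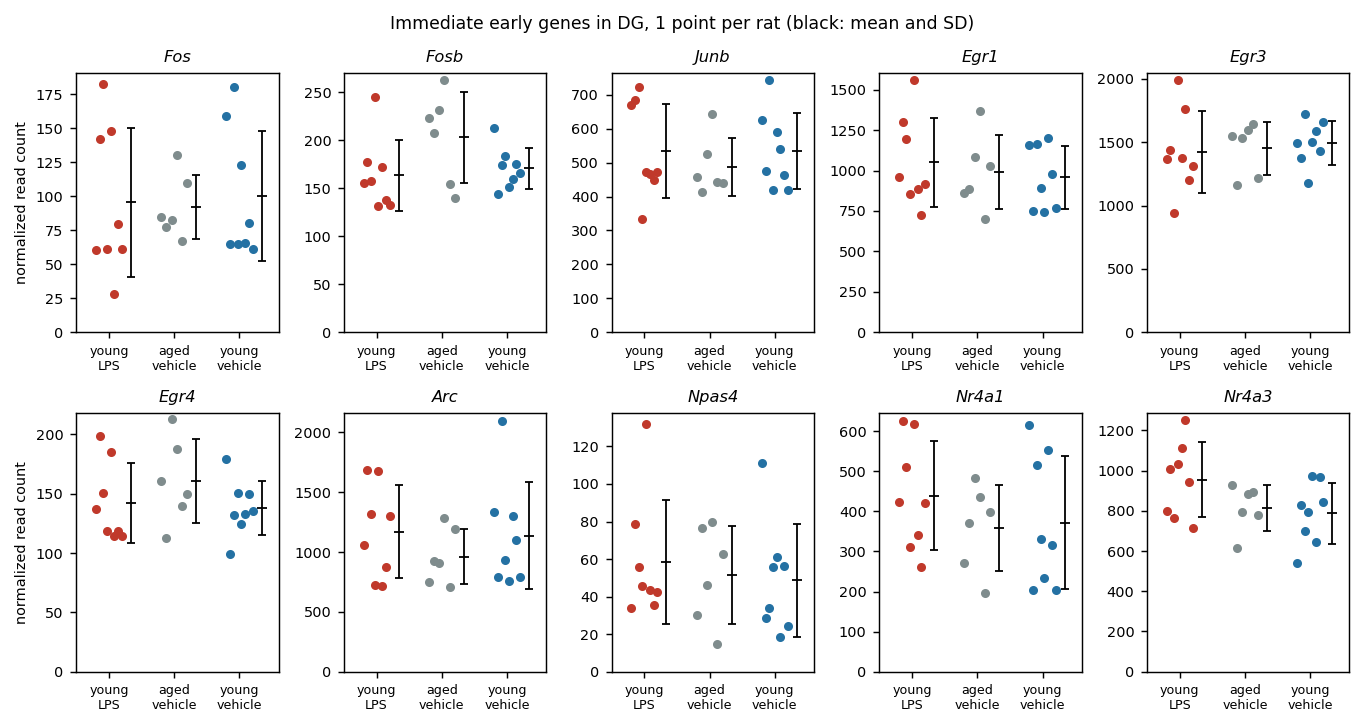
Normalized reads (y axis, from 0) of the 10 genes in DG of each rat in young LPS (n = 8), aged vehicle (n = 6) and young vehicle (n = 8); points are rats, black bars mean and SD. The groups overlap in every panel.

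Whether a change differed between CA1 and DG was tested on each rat's own CA1 level minus its DG level, over 14637 genes. No member passed the threshold. For young LPS minus young vehicle 8 of 10 differences were positive, with a median of 0.18, beside 0.02 over all genes. Of all genes 0.00683% were called and 13% had an unadjusted p below 0.05, against 0 of 10. For aged vehicle minus young vehicle 10 of 10 were negative, with a median of -0.28, beside 0.00 over all genes. Again the shared sign is not 10 separate observations. Of all genes 0% were called and 5.21% had an unadjusted p below 0.05, against 0 of 10. The interval for Nr4a1 ran from -1.39 to 0.08 and that for Arc from -1.12 to 0.10.

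For young LPS minus aged vehicle, tested after the CA1 calls were seen, 9 of 10 differences were positive, with a median of 0.50, beside 0.03 over all genes. Of all genes 8.98% were called and 32.6% had an unadjusted p below 0.05, against 6 of 10. The difference was 0.82 for Fos (SE 0.32, limma adjusted p = 0.0847), 0.77 for Arc (SE 0.30, adjusted p = 0.0829), 0.75 for Nr4a1 (SE 0.36, adjusted p = 0.149) and 0.51 for Egr1 (SE 0.19, adjusted p = 0.0768). So the 4 calls in CA1 were not shown to differ from DG. CA1 pyramidal markers in the DG libraries also differed between these groups, with a median log2 change of -0.515 (1 of 10 positive). Their part in the region difference was not tested.

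**Figure D3:**
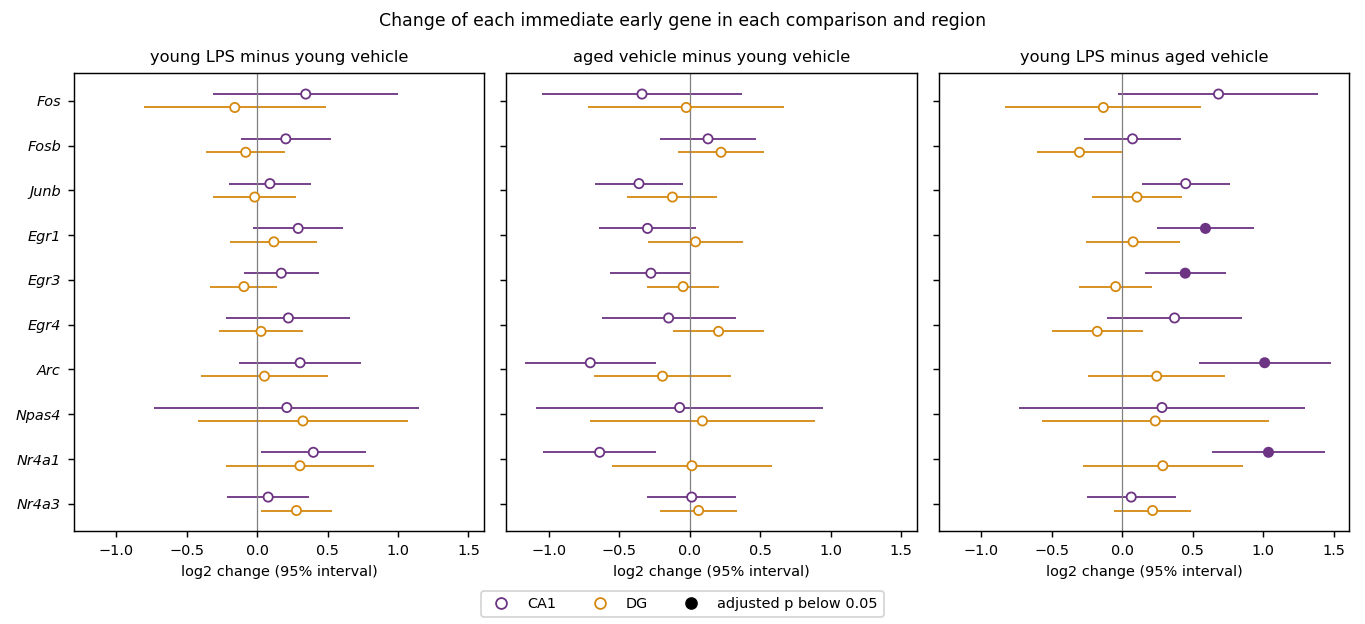
Log2 change with its 95% interval (x axis) of each gene in CA1 (purple) and DG (orange) for 3 comparisons; filled points have a limma adjusted p below 0.05. The filled points are Egr1, Egr3, Arc and Nr4a1 in CA1 for young LPS minus aged vehicle, from 0.45 to 1.04.

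Across the 22 rats the genes varied together, more widely in CA1. Values were centred on their group mean, and p-values come from permutation tests with 100000 resamples, adjusted over the 18 relations with Fos. All permutation tests here shuffled the centred values over the 22 rats without regard to group. The groups differed in spread, which these p-values do not allow for. The coefficient of variation of Fos in CA1 was 63.2% in young LPS, 36.4% in aged vehicle and 33.7% in young vehicle. In CA1 the level of Fos varied with that of Arc (Pearson r = 0.779, Spearman rho = 0.797, permutation adjusted p = 0.00036 for each), Egr1 (r = 0.743, rho = 0.678, adjusted p = 0.00054 and 0.00275) and Nr4a1 (r = 0.742, rho = 0.813, adjusted p = 0.00036 and 0.00018). Fosb followed at r = 0.687, Junb at 0.608, Npas4 at 0.534 and Egr4 at 0.45, all with a permutation adjusted p below the threshold, though Egr4 missed it by rank (rho = 0.421, permutation adjusted p = 0.071). Egr3 (r = 0.317, permutation adjusted p = 0.186) and Nr4a3 (r = 0.276, permutation adjusted p = 0.24) missed the threshold.

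Without rats 2722 and 2404, the farthest from the median of Fos in CA1, r was 0.723 for Arc, 0.734 for Egr1, 0.7 for Nr4a1 and 0.341 for Egr4. With the means of the number series removed as well, Egr4 fell to r = 0.07 and Junb to r = 0.352, and 4 of the 9 relations in CA1 passed. Over the 45 pairs of the 10 genes in CA1, 42 correlations were positive, with a median of 0.428. Their mean was 0.418, beside a mean of 0.000826 over pairs of all genes. The lowest pair stood at -0.107 and the highest at 0.871.

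In DG Fos varied with Arc (r = 0.722, rho = 0.686, permutation adjusted p = 0.000585 and 0.00275), Junb (r = 0.633), Egr1 (r = 0.621), Nr4a1 (r = 0.559), Egr4 (r = 0.557) and Npas4 (r = 0.547), of which Egr4 missed the threshold by rank (rho = 0.45, permutation adjusted p = 0.0546). Without rats 2547 and 2408, r was 0.713 for Arc and 0.592 for Nr4a1. Fosb (r = 0.02), Egr3 (r = -0.313) and Nr4a3 (r = -0.259) did not pass. Of the 45 pairs in DG, 32 were positive, with a median of 0.298 and a range from -0.492 to 0.91. Their mean was 0.257, beside a mean of 0.000979 over pairs of all genes.

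Markers of CA1 pyramidal neurons differed widely between the DG libraries, and several members varied with them. The summed level of the CA1 pyramidal markers in DG ran from 2671 to 13010 in young LPS, from 2909 to 18330 in aged vehicle and from 2761 to 16610 in young vehicle. Their median log2 change in DG was 0.648 for aged vehicle minus young vehicle (8 of 10 positive). It was -0.515 for young LPS minus aged vehicle (1 of 10 positive) and 0.084 for young LPS minus young vehicle (9 of 10 positive). In none of these comparisons did a marker of this list have a limma unadjusted p below 0.05. A dissection score was taken as the mean log2 level of 10 CA1 pyramidal markers minus that of the dentate granule markers. It ran from -0.93 to 2.17 in DG, with a median of 0.98, and from 3.16 to 5.84 in CA1, with a median of 3.75. Across the 22 DG libraries Nr4a1 varied with the score (r = 0.903, rho = 0.863, permutation adjusted p = 0.0002 for each, the smallest the resamples can give over 20 relations). Arc (r = 0.794, rho = 0.753, permutation adjusted p = 0.0003 and 0.0009) and Egr1 (r = 0.765, rho = 0.736, permutation adjusted p = 0.000333 and 0.000933) did so too. Fos (r = 0.577) and Junb (r = 0.568) passed with permutation adjusted p of 0.0196 and 0.0203, though Fos did not by rank (rho = 0.492, permutation adjusted p = 0.0723), while Egr4, Npas4, Egr3 and Fosb did not.

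Nr4a3 ran the other way, being lower where the score was higher (r = -0.694, rho = -0.728, permutation adjusted p = 0.0023 and 0.00105). Without rats 2531 and 2573, farthest from the median score, r was 0.876 for Nr4a1, 0.8 for Arc, 0.688 for Egr1 and -0.764 for Nr4a3. In CA1 the r of the 10 genes with the score lay between -0.435 and 0.215, and none passed.

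**Figure D4:**
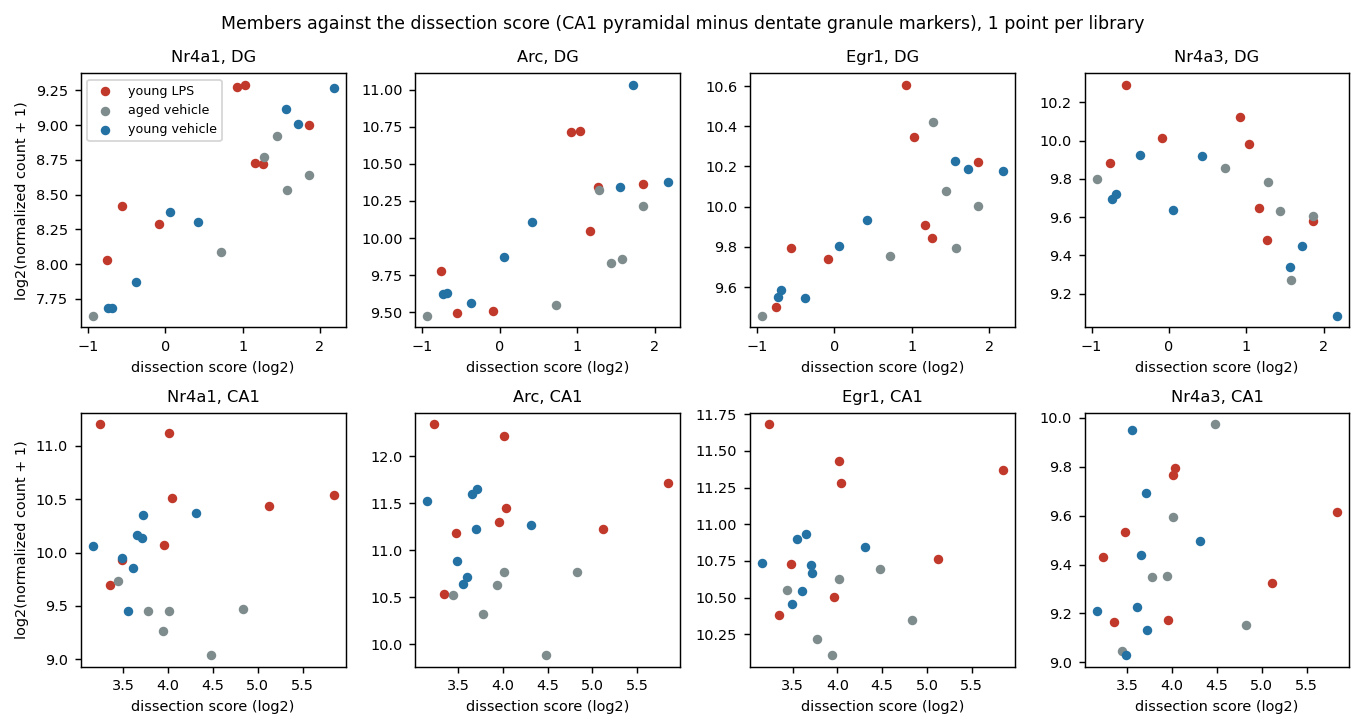
Level of Nr4a1, Arc, Egr1 and Nr4a3 as log2(normalized reads + 1) (y axis) against the dissection score (x axis, log2) in DG (top row) and CA1 (bottom row); points are libraries, coloured by group. In DG, r within groups is 0.903 for Nr4a1, 0.794 for Arc, 0.765 for Egr1 and -0.694 for Nr4a3.

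With the score removed from every gene, an alternative chosen after these relations were seen, 1 of 9 relations with Fos passed in DG, that of Arc (r = 0.53, permutation adjusted p = 0.0295), while 6 of 9 passed in CA1. The r of Nr4a1 with Fos in DG was then 0.106, that of Egr1 0.341 and that of Junb 0.454. With the score as a term in the fit, young LPS minus aged vehicle in DG was 0.47 for Nr4a1 (SE 0.13, limma unadjusted p = 0.000986, adjusted p = 0.296) and 0.38 for Arc (SE 0.14, limma unadjusted p = 0.0133, adjusted p = 0.473). Over the alternatives the adjusted p ran from 0.296 to 1 for Nr4a1 and from 0.287 to 1 for Arc. These log2 changes exceed those without the term, and no member was called.

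**Figure D5:**
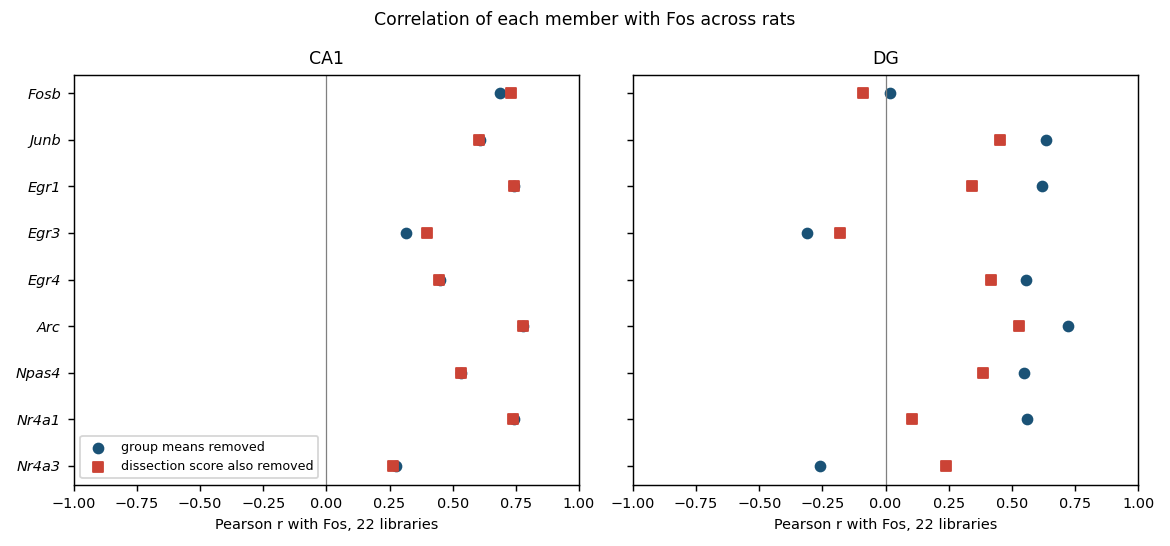
Pearson r with Fos (x axis) of the other 9 genes over 22 libraries of CA1 (left) and DG (right); circles have group means removed and squares the dissection score removed as well. In CA1 the symbols nearly coincide apart from Egr3 and Fosb, and in DG the 6 genes that had passed lie closer to 0 with the score removed, Nr4a1 at 0.106.

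The level in CA1 of a rat also tracked its level in DG for 4 of the 10 genes. With adjustment over 10 relations, these were Npas4 (r = 0.697, rho = 0.782, permutation adjusted p = 0.0028 and 0.0002), Egr1 (r = 0.638, rho = 0.649, adjusted p = 0.00647 and 0.0071), Fos (r = 0.613, rho = 0.546, adjusted p = 0.00647 and 0.0231) and Junb (r = 0.61, rho = 0.563, adjusted p = 0.00647 and 0.0228). The median over 14637 genes was 0.0298, and 0.232% of genes had an r as high as Npas4. Arc (r = 0.385), Egr4 (r = 0.247) and Nr4a1 (r = 0.118) did not pass, nor did Fosb, Egr3 and Nr4a3, whose r was below 0.

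Without the 2 rats farthest from the CA1 median, r was 0.758 for Npas4, 0.553 for Egr1, 0.562 for Fos and 0.54 for Junb. With the number series removed, Npas4 (r = 0.66) and Egr1 (r = 0.633) passed, while Fos stood at 0.459 and Junb at 0.342. With the dissection score removed, Fos (r = 0.547), Npas4 (r = 0.546) and Arc (r = 0.601) passed at permutation adjusted p of 0.0296, 0.0296 and 0.0293. Egr1 (r = 0.481, permutation adjusted p = 0.0599) and Junb (r = 0.403, permutation adjusted p = 0.125) then missed the threshold. Junb also missed it without rats 2526, 2572 and 2532 (r = 0.523, permutation adjusted p = 0.0539).

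Other activity-regulated genes were taken from 4 fixed lists. Their 11 calls, all in CA1 for young LPS minus aged vehicle, stand beside 8.73% of all genes called and 3.49% called higher, and all were lost in 15 of the 22 fits that left out 1 library. In CA1 for young LPS minus aged vehicle, 2 of 17 tested genes among other rapid transcription factors were called higher and 1 lower, with a list median of 0.17, beside 0.02 over all genes. Ier2, a nuclear factor of the same rapid class, averaged 100.7 ± 34.7 in young LPS (SD, n = 8) against 57.5 ± 8.71 in aged vehicle (SD, n = 6), and its log2 change was 0.74, with an SE of 0.22 and a limma adjusted p of 0.049. Per1, a clock gene that CREB induces, averaged 1271 ± 305 in young LPS against 883 ± 134 in aged vehicle, a change of 0.50 (adjusted p = 0.049). Crem, which encodes activators and repressors at CRE sites, averaged 123 ± 30.8 in young LPS against 187 ± 65.4 in aged vehicle, a change of -0.58 (adjusted p = 0.049).

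None of 18 induced signalling brakes and kinases was called, with a list median of 0.25. Of 19 synaptic and secreted effectors 1 was higher and 2 were lower, with a list median of -0.15. These were Synpo, an actin-binding protein of the spine apparatus, at 0.48, Fbxo33, an F-box protein, at -0.51 and the prohormone convertase Pcsk1 at -0.71 (limma adjusted p = 0.049 for each). Of 22 upstream receptors, kinases and factors 4 were higher and 1 lower, with a list median of 0.11. The 3 with the smallest p were the CREB coactivator Crtc1 at 0.53, serum response factor Srf at 0.42 and the calcium-dependent kinase subunit Camk2b at 0.58 (limma adjusted p = 0.049 for each).

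Close relatives of the 10 genes did not pass in this comparison. Egr2 averaged 69.8 ± 52.2 in young LPS CA1 against 34.9 ± 15.2 in aged vehicle; the log2 change was 0.73, with an SE of 0.44 and a limma adjusted p of 0.234. Jun changed by 0.15, Fosl2 by 0.43, Nr4a2 by 0.02 and the antiproliferative factor Btg2 by 0.14. The phosphatases Dusp1 and Dusp6, which switch off MAP kinases, changed by 0.41 (limma adjusted p = 0.129) and 0.24. Among slower synaptic products Homer1 changed by -0.27, Bdnf by -0.26 and Nptx2 by 0.18. No gene of the 4 lists was called in the other comparisons or in DG.

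The genes with a symbol whose mean r with the 10 across CA1 libraries was highest were Socs7 (0.574), Traf3 (0.573), Gpnmb (0.569), Egr2 (0.567) and Midn (0.566). Midn reached its highest r, 0.913, with Nr4a1, and Gpnmb, 0.836, with Arc. In DG they included Ephb3 (0.425), Ckb (0.405), Egr2 (0.402) and Cln8 (0.4). The lowest r of these with any of the 10 was -0.451 for Ephb3, -0.131 for Ckb, -0.189 for Egr2 and -0.277 for Cln8. Over all other genes past the filter, the median of the mean r was -0.000289 in CA1 and 8.9e-05 in DG. The relation of these DG genes to the dissection score was not tested. Egr2 was named in both regions.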

How the data were processed

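Polyadenylated RNA of 44 libraries, CA1 and DG of 22 rats, was sequenced after library preparation with an Ion kit for total RNA (labels' protocols). The authors deposited a table per region of normalized read counts, a signal that is never negative; the submitters' processing notes list STAR, Partek, DESeq2 and build rn6 without roles or versions. The sources used here give neither annotation nor strand use. Groups come from the labels. No column was left unused.

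The deposited values are whole multiples of 1 step per library; dividing by it gave whole reads within 0.1 for 99.71% of nonzero values in CA1 and 99.97% in DG. Genes reaching 10 in 6 or more libraries were tested with limma 3.58.1 (R 4.3.3; trend, robust) on log2(value + 1), with 3 groups in 1 fit per region and Benjamini-Hochberg adjustment over all genes; on this scale changes of low genes are understated. The region difference was tested within rats. The pairing comes from the labels, which give 1 hippocampus and 1 number per rat; deviations of a rat's libraries had a median correlation of 0.0513, above 0.1 in 8 of 22 rats. No 2 replicates agreed within counting noise (lowest chi-square per gene 4.66). Alternatives covered the pseudocount, filter, scaling, covariates, weights, libraries, edgeR 4.0.16 and DESeq2 1.42.0. The fit was tested on simulated data. Counting error covers the sampling of reads only.

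The 10 genes, the lists and the rule for named genes (all 10, up to 3 called genes a list by smallest p, 11 preset relatives and the 5 nearest genes per region) were chosen with earlier results of these data known. Some genes that these rules name are not reported here.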

Additional observations from a re-analysis of the deposited data

Results flagged for a closer look

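Of 60 sets of values (10 genes, 3 groups, each region), 4 held a library that stood apart from the rest of its group, all in DG. Chance gives about 1 such set in 20. Npas4 in rat 2543 of young LPS was 132.2 normalized reads, with the nearest of the other 7 libraries at 78.69. Npas4 in rat 2410 of young vehicle was 111.4, with the nearest at 60.86. Fosb in rat 2527 of young LPS was 245.1, with the nearest at 177.0. Arc in rat 2526 of young vehicle was 2095, with the nearest at 1332; the same DG library had meningeal fibroblast markers 2.07, blood markers 2.06 and CA1 pyramidal markers 0.70 above the DG mean on the log2 scale, and their part in the value was not tested.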

How the results depend on the processing

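For young LPS minus aged vehicle in CA1, 4 members were called. The count was 0 with no filter, with only the 2 groups compared, without rats 2526, 2572 and 2532, and in number series 25 alone, and 7 with the number series as a term. Leaving out 1 library at a time gave 0 to 5, with 0 in 15 of 22 cases. Over all genes these settings called 3, 0, 5, 0 and 2910, and leaving out a library 0 to 3399, beside 1302; library weights called 3496, edgeR 2144 and DESeq2 3299. The 11 called genes of the fixed lists became 0 in the first 4 of these settings, 19 with the number series term, 18 with library weights and 19 with DESeq2, and 0 to 19 with a library left out. For aged vehicle minus young vehicle in CA1, library weights called 1 member and 4 list genes, against 0 and 0. For the region difference of young LPS minus aged vehicle, leaving out a rat gave 0 to 2 members, against 0. Without the replicate block the count of members called was 0 in all 3 region differences, as with it.

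Of the 18 relations with Fos 13 passed, 8 with the number series removed and 7 with the dissection score removed. Of the 10 relations between regions 4 passed, 2 with the number series removed and 3 with the dissection score removed, among them Arc in place of Egr1 and Junb. In each of these cases the cause was not tested, apart from fewer libraries or more genes tested where the setting itself brings them.

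No called value changed sign. Of 960 log2 changes of single genes under other settings 56 changed sign without being called, and 71 of 1980 with a library left out. The limits are 6 to 8 rats per group, low counts of Npas4 and Fos, and a marker score in DG that varies between libraries.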
